A study of Mus musculus with 9 samples.

Results

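The genes that encode the 4 subunits found only in PBAF (*Pbrm1*, *Arid2*, *Brd7* and *Phf10*) and 5 core subunits of SWI/SNF complexes (*Smarca4*, *Smarcb1*, *Smarcc1*, *Smarcc2* and *Smarce1*) were examined for occupancy by 2 proteins of the same complexes. These 9 genes were listed by name, out of 21755 protein-coding genes on the autosomes and X in GENCODE vM21. For each gene, every peak with its summit in the gene body or within 20 kb on either side was collected. Promoter peaks were those with a summit no farther than 2 kb from an annotated transcript start, and distal peaks those farther than that from every start of any gene. The height of a peak is its pileup, the number of fragments over the summit, and was scaled to FPM (fragments at the summit per 1000000 fragments of the library).

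The peaks came from ChIC-Seq, in which an antibody brings a protein A-micrococcal nuclease fusion to fixed chromatin and the DNA released by the nuclease is sequenced. The cells were wild-type (WT) primary oviductal muscle cells, isolated on D2 (day 2) of pregnancy from mice aged 8 to 12 weeks, digested from whole oviduct, filtered and plated for some hours, with 50000 cells per library. Antibodies to PBRM1 (also named BAF180) and to BRG1, the product of *Smarca4*, gave 3 replicate libraries each, and the lists called on the pooled replicates of each antibody were used as well. IgG samples (3) belong to the series and were not analysed here. The labels do not say whether replicates came from separate mice, so p-values measure the spread between these libraries, which may be technical. No gene or protein level was measured: the values are peaks on DNA.

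SWI/SNF complexes use the energy of ATP to slide or eject nucleosomes. PBAF shares a core with the other SWI/SNF forms and is set apart by PBRM1, which carries a row of bromodomains that read acetylated histones, and by ARID2, BRD7 and PHF10. BRG1 is the motor of PBAF and of canonical BAF, so a PBRM1 site is a candidate PBAF site, whereas a BRG1 site may belong to several complexes. Whether remodelers occupy the genes that encode them is the question of self-occupancy.

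The replicate libraries held 14284532 to 23992352 fragments, the PBRM1 libraries being the deeper set, and 31970 to 39467 peaks. Among 8 smooth muscle markers, *Acta2*, *Tagln* and *Smtn* had a promoter peak in all 6 replicate lists, 4 had one in 1 to 5 lists and *Cnn1* in none. The 3 of 8 were not above the 41.8% of all protein-coding genes with such a peak. Of 4 endothelial markers, *Tek* had a promoter peak in all 6 lists and 2 had one in 1 to 5 lists. None of 4 stromal, 7 epithelial and 4 immune markers had one in all 6 lists, while 3 stromal, 3 epithelial and no immune markers had one in 1 to 5 lists. Peaks do not measure expression, and these counts do not settle the label.

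A promoter peak was present in all 6 replicate lists for 6 of the 9 genes: *Pbrm1*, *Arid2*, *Smarca4*, *Smarcb1*, *Smarcc1* and *Smarce1*. The same held for 41.8% of all protein-coding genes. Taken by antibody, these 6 genes were in all 3 PBRM1 lists, against 44.2% of protein-coding genes, and 7 genes, with *Phf10* added, were in all 3 BRG1 lists, against 50.0%. By role, 2 of the 4 PBAF-specific genes and 4 of the 5 core genes were in all 6 lists. Among 20 other SWI/SNF subunit genes 11 had a promoter peak in all 6 lists, 8 in some lists and *Bicral* in none. Among 16 ATPase genes of other remodeler families 10 were in all 6 lists and *Chd5*, a remodeler of neurons and testis, was in none. In the pooled lists, which rest on 61910852 PBRM1 and 45216486 BRG1 fragments, all 9 subunit genes had a promoter peak for both antibodies, as did 64.0% of protein-coding genes (66.0% for PBRM1 and 67.8% for BRG1 taken singly). So did all 20 other SWI/SNF subunit genes and 15 of the 16 ATPase genes of other families, so this was not particular to the 9 genes.

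**Figure D1:**
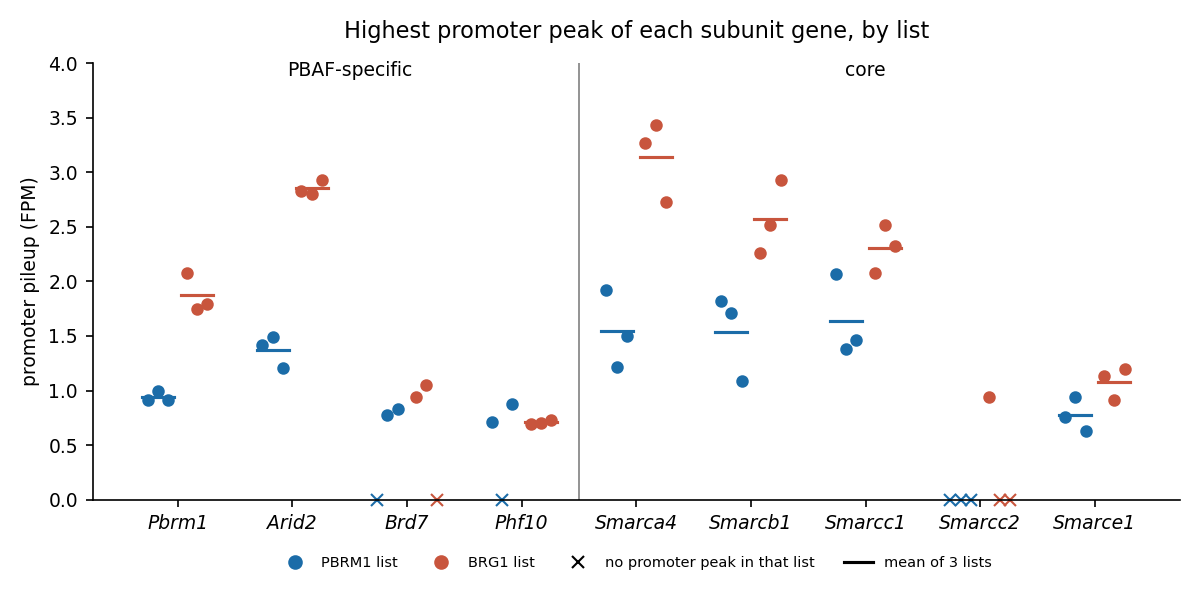
Pileup at the summit of the highest promoter peak of each subunit gene, in FPM (vertical axis, linear from 0), in the 3 PBRM1 and 3 BRG1 replicate lists; crosses mark lists without a promoter peak and bars the mean where all 3 lists had one. *Smarca4* reached 3.43 in a BRG1 list, the highest value plotted, and *Brd7*, *Phf10* and *Smarcc2* each lacked a promoter peak in at least 1 list.

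*Pbrm1* lies at chr14:31019138-31121592 on the plus strand (GRCm38) and encodes the subunit against which the PBRM1 antibody was directed. Its promoter peak had a summit between -159 and -11 bp of the 5′ start in all 6 lists (negative values are upstream). This stretch is also the start of *Gnl3*, a nucleolar GTPase gene read in the opposite direction, so the peak cannot be given to either gene. The summit pileup was 18, 18 and 22 fragments in PBRM1 replicates 1, 2 and 3, and 33, 25 and 27 in BRG1 replicates 1, 2 and 3. In FPM these pileups were 0.909, 0.993 and 0.917 for PBRM1 against 2.08, 1.75 and 1.80 for BRG1. The BRG1 lists were all higher and the groups did not overlap, as at 56.8% of all regions of the genome with a peak in all 6 lists. The PBRM1 peaks were also narrow, at 202, 306 and 249 bp, with 3.16- to 3.45-fold enrichment over the local background of the library, against 5.73- to 6.53-fold in the BRG1 lists.

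Ranked among the promoter peaks of all protein-coding genes in the same replicate list, the *Pbrm1* promoter stood low for its own protein. Its pileup was above that of 21.8%, 25.6% and 33.6% of genes with a promoter peak in PBRM1 replicates 1, 2 and 3 (mean 27.0% ± 6.02, SD, n = 3). In the BRG1 lists the same promoter stood at 64.9%, 52.6% and 50.0%. In the pooled lists it stood at 42.6% for PBRM1 and 67.7% for BRG1. Low positions in the PBRM1 replicate lists were not limited to *Pbrm1*. *Smarce1* (8.77% to 21.2%) was below it in every PBRM1 replicate list. So were *Brd7* (10.1% and 25.9% in replicates 2 and 3) and *Phf10* (9.24% and 29.8% in replicates 1 and 3), where they had a peak. *Arid2*, *Smarca4*, *Smarcb1* and *Smarcc1* were above *Pbrm1* in every PBRM1 replicate list. When only peaks with −log10 q of at least 5 were kept, no PBRM1 replicate list held a peak at the *Pbrm1* promoter, as for 51.7% of protein-coding genes. Ranked by fold enrichment, the position in the PBRM1 replicate lists was 7.49% ± 4.52 (SD, n = 3).

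All 300 bases around the pooled PBRM1 summit of the *Pbrm1* promoter are annotated as exon of *Gnl3* or *Pbrm1*, so only the 30 bases around its match to the E-box are shown, with the match in capitals (plus strand, chr14:31018991-31019020).
Pbrm1 E-box: cttctcgggcgcCACGTGcgaactggaact
The E-box (CACGTG) is read by basic helix-loop-helix factors such as USF and MYC, and 8.92% of 12901 windows of 300 bases at pooled PBRM1 promoter summits of protein-coding genes held it. The *Pbrm1* window had 71.3% GC and 39 CpGs, above 92.6% and 96.5% of those windows.

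*Smarca4* lies at chr9:21616169-21704230 on the plus strand and encodes BRG1. Its promoter peak had its summit at -163 bp in 2 of the 3 BRG1 lists and at -174 bp in BRG1 replicate 1, and between -428 and -161 bp in the PBRM1 lists. Pileup was 3.27, 3.43 and 2.73 FPM in BRG1 replicates 1, 2 and 3 and 1.92, 1.21 and 1.50 in PBRM1 replicates 1, 2 and 3. Every BRG1 list was above every PBRM1 list. Unlike *Pbrm1*, *Smarca4* ranked high for its own protein: its pileup was above that of 92.8%, 95.3% and 82.3% of genes with a promoter peak in the BRG1 lists (mean 90.2% ± 6.89, SD, n = 3). High positions in the BRG1 lists were not limited to *Smarca4*. *Arid2* stood at 86.1% to 87.7%, *Smarcb1* at 71.7% to 86.1% and *Smarcc1* at 64.9% to 82.2%. In BRG1 replicate 3, *Arid2* and *Smarcb1* were above *Smarca4*. *Pbrm1*, *Smarce1* and *Phf10* stood lower by mean, as did *Brd7* and *Smarcc2* where they had a peak. In PBRM1 replicates 1, 2 and 3 the positions of *Smarca4* were 84.1%, 44.6% and 79.1%, so replicate 2 stood apart. By fold enrichment the position in the BRG1 lists was lower, at 72.9% ± 13.5 (SD, n = 3).

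The part of the *Smarca4* window upstream of the 5′ start (plus strand, chr9:21615872-21616168) is shown because it was the highest promoter of the set by mean BRG1 pileup, although *Arid2* and *Smarcb1* were higher in BRG1 replicate 3. Capitals mark matches on either strand to GGGCGG, the GC box of SP and KLF factors, and to GCGCATGC, a core of the palindrome bound by NRF1.
Smarca4 promoter: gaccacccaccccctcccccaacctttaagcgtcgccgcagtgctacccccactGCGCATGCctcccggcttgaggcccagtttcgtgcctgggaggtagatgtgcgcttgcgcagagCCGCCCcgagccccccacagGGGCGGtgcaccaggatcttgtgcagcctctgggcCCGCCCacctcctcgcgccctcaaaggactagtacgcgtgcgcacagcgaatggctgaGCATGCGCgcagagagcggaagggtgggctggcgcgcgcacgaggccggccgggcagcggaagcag
It held 3 GGGCGG matches, a motif present in 54.9% of the promoter windows, and 2 GCGCATGC matches, a motif present in 4.46%. A match is a run of letters, not a binding site. Over the 9 member windows, GGGCGG was found in 5 (*Pbrm1*, *Arid2*, *Smarca4*, *Smarcb1*, *Smarcc1*) and GCGCATGC in 2 (*Smarca4*, *Smarcc1*). CCGGAAG (in 13.4% of all promoter windows) was in that of *Smarcc1*, CCAAT (34.5%) in that of *Smarcc2* and GGAATG (12.9%) in that of *Phf10*. None of the 9 held GCCATNTT (in 6.95% of all promoter windows), the cAMP response element TGACGTCA (2.53%), the AP-1 site TGANTCA (7.58%), the element TCTCGCG (4.56%) or the CArG box of serum response factor (1.32%). The 6 genes with a peak in all lists had windows of 59.7% to 71.3% GC, against a median of 61.7% over all promoter windows. The windows of *Brd7* (39.3%) and *Phf10* (47.0%) were poorer in GC and that of *Smarcc2* (61.3%) was near the median. Each window lay at the pooled PBRM1 summit, which was at -291 bp for *Brd7* and at 1094 bp, inside the gene, for *Phf10*.

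**Figure D2:**
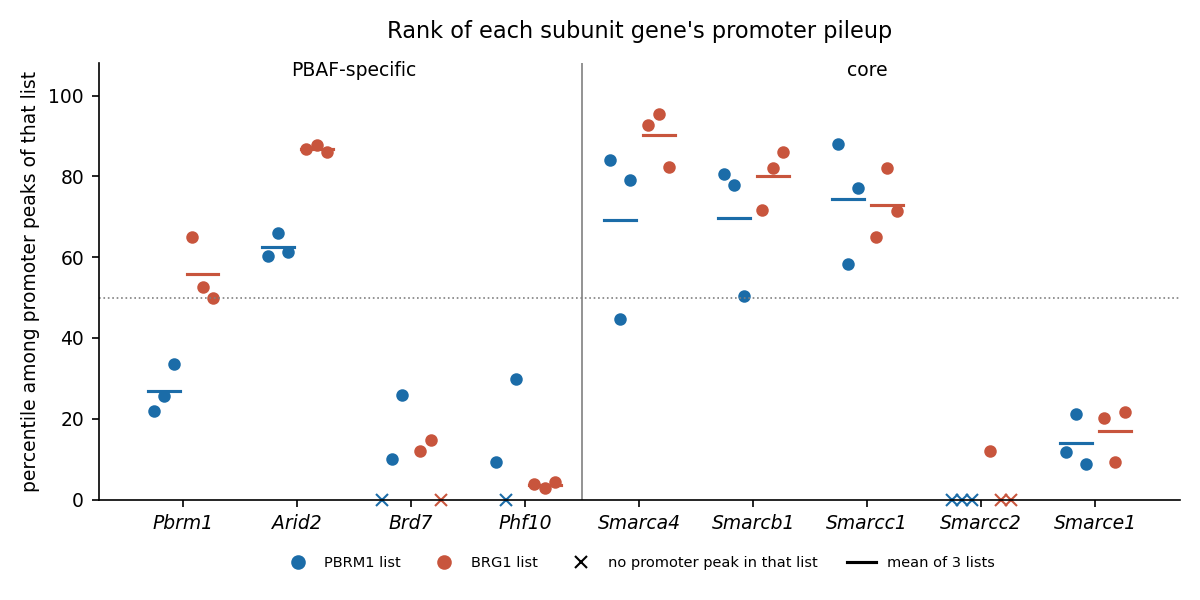
Percentile of each subunit gene's promoter pileup among the promoter peaks of all protein-coding genes in the same replicate list (vertical axis, percent; the dotted line is the middle of the list); points are lists, crosses lists without a peak and bars means of 3. *Pbrm1* sat between 21.8 and 33.6 in the PBRM1 lists, and *Smarca4* between 82.3 and 95.3 in the BRG1 lists.

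*Arid2* (chr15:96287518-96404992, plus strand) encodes the AT-rich interaction domain subunit of PBAF. Its highest promoter peak was not at the 5′ start. It lay near -1.83 kb, within 2 kb also of a start of the noncoding gene *2610037D02Rik*, except in BRG1 replicate 1, where a second peak at -798 bp was higher. Pileup was 1.41, 1.49 and 1.21 FPM in PBRM1 replicates 1, 2 and 3, and 2.83, 2.80 and 2.93 in BRG1 replicates 1, 2 and 3. The groups did not overlap, with BRG1 above.

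*Brd7* (chr8:88331039-88362194, minus strand) encodes a bromodomain subunit. A promoter peak was in 4 of 6 lists. The highest was at -288 bp in PBRM1 replicate 3 and at 1105 bp and 775 bp in BRG1 replicates 1 and 2, where the peaks overlapped each other. In PBRM1 replicate 2 it was at 21128 bp, 1690 bp from an internal start. Pileup ranged from 14 to 20 fragments. *Phf10* (chr17:14945009-14961273, minus strand) encodes a subunit with paired PHD fingers. Its highest promoter peaks lay inside the gene, between 500 and 1146 bp, and were in all 3 BRG1 lists and in PBRM1 replicates 1 and 3. Pileup was 14 and 21 fragments in those PBRM1 lists (0.707 and 0.875 FPM) and 11, 10 and 11 in the BRG1 lists (0.692, 0.700 and 0.732 FPM). The groups overlapped in FPM, but PBRM1 replicate 2, without a called peak, has no value in this comparison. The highest peaks also lay at different positions. They were at 500 and 1146 bp in PBRM1 replicates 1 and 3, and at 1143, 537 and 565 bp in BRG1 replicates 1, 2 and 3. Whether *Phf10* followed the higher BRG1 values of *Pbrm1* and *Arid2* cannot be told from these values. *Phf10* could not be fitted with the genes in all 6 lists.

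*Smarcb1* (chr10:75896769-75921617, minus strand) encodes the small core subunit also known as SNF5. Its promoter pileup was 1.82, 1.71 and 1.08 FPM in PBRM1 replicates 1, 2 and 3 and 2.26, 2.52 and 2.93 in BRG1 replicates 1, 2 and 3. PBRM1 replicate 3, the deepest library, was the lowest. *Smarcc1* (chr9:110117708-110240178, plus strand) encodes a scaffold subunit and had a pair of promoter regions in all 6 lists. The higher was near an internal start at 14.3 kb, with 2.07, 1.38 and 1.46 FPM for PBRM1 and 2.08, 2.52 and 2.33 for BRG1. The other, at -0.292 kb, also lies at a start of the helicase gene *Dhx30* and had 1.11, 0.938 and 0.959 FPM for PBRM1 and 1.82, 2.10 and 1.73 for BRG1. At both, every BRG1 list exceeded every PBRM1 list, at the internal start by a very small margin. The same held at 56.8% of all regions with a peak in all 6 lists. *Smarce1* (chr11:99209047-99231017, minus strand), which encodes the HMG-box core subunit, was the lowest of the 6 genes. Its pileup was 0.758, 0.938 and 0.625 FPM for PBRM1 and 1.13, 0.910 and 1.20 for BRG1, and the groups overlapped.

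*Smarcc2* (chr10:128459248-128490482, plus strand) encodes the scaffold paralog of *Smarcc1* and differed from it. Only BRG1 replicate 1 had a promoter peak, at -629 bp, with a pileup of 15 fragments and 2.64-fold enrichment. Its pooled promoter peaks were weak as well, with pileups of 37 for PBRM1 and 40 for BRG1 and 2.78- and 2.97-fold enrichment. Of protein-coding genes 34.3% had no promoter peak in any replicate list, a class that leaves out *Smarcc2* with its 1 list. The share of genes with a peak in a single list is not given here.

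The antibodies were then compared at the 6 promoter regions with a peak in every replicate list, the highest such region standing for each gene, by limma on log2 pileup in FPM over all 12828 regions of the genome present in all 6 lists. The difference was called at a Benjamini-Hochberg adjusted p below 0.05. BRG1 was higher at 5 of the 6 promoters and PBRM1 at none. This has to be read against the genome, since 53.4% of all these regions were called, 53.0% as higher for BRG1 and 0.413% as higher for PBRM1. The PBRM1 minus BRG1 difference was -1.04 at *Smarca4* (log2, SE 0.18, adjusted p = 7.38e-06), -0.99 at *Pbrm1* (SE 0.21, adjusted p = 8.65e-05) and -0.98 at *Arid2* (SE 0.19, adjusted p = 2.48e-05). It was -0.77 at *Smarcb1* (SE 0.19, adjusted p = 0.000667) and -0.52 at *Smarcc1* (SE 0.19, adjusted p = 0.0173). The *Smarcc1* call was lost without PBRM1 replicate 2 (-0.40, adjusted p = 0.0983) or 3 (-0.44, 0.0596), or without BRG1 replicate 2 (-0.45, 0.0763) or 3 (-0.51, 0.0558). At *Smarce1* it was -0.49 (SE 0.23, adjusted p = 0.0589). The groups did not overlap at the first 5 of these promoters, with BRG1 above, as at 56.8% of all regions, while PBRM1 was above without overlap at 0.756%. The other *Smarcc1* promoter region, at -0.292 kb and shared with *Dhx30*, was not among the 6. Its difference was -0.91 (SE 0.20, adjusted p = 0.000227).

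The median difference was -0.88 over the 6 promoters, -0.59 over all promoter regions and -0.49 over all regions. Among all regions, only 2.07% had a lower difference than *Smarca4*, 3.20% than *Pbrm1* and 3.61% than *Arid2*. *Smarcc1* at its internal start (46.2%) and *Smarce1* (49.3%) lay near the middle. When each list was scaled to its own median over these regions, which moved the median difference from -0.49 to -0.02, 602 regions (4.69%) were called in place of 6852, 2.25% as higher for PBRM1 and 2.45% as higher for BRG1, so 47.8% of the calls were higher for PBRM1 in place of 0.773%. *Smarca4* then remained called (-0.58, adjusted p = 0.0319), and *Arid2* (-0.51, adjusted p = 0.0555) and *Pbrm1* (-0.53, adjusted p = 0.0919) did not pass. Nor did *Smarcb1* (-0.30, adjusted p = 0.294) or *Smarcc1* (-0.05, adjusted p = 0.895), at which the groups then overlapped. The *Smarcc1* region at -0.292 kb did not pass either (-0.44, adjusted p = 0.155). With fold enrichment in place of pileup *Pbrm1* was the promoter called (-0.86, adjusted p = 0.00215), against 10.9% of all regions called, 10.7% as higher for BRG1 and 0.218% as higher for PBRM1.

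**Figure D3:**
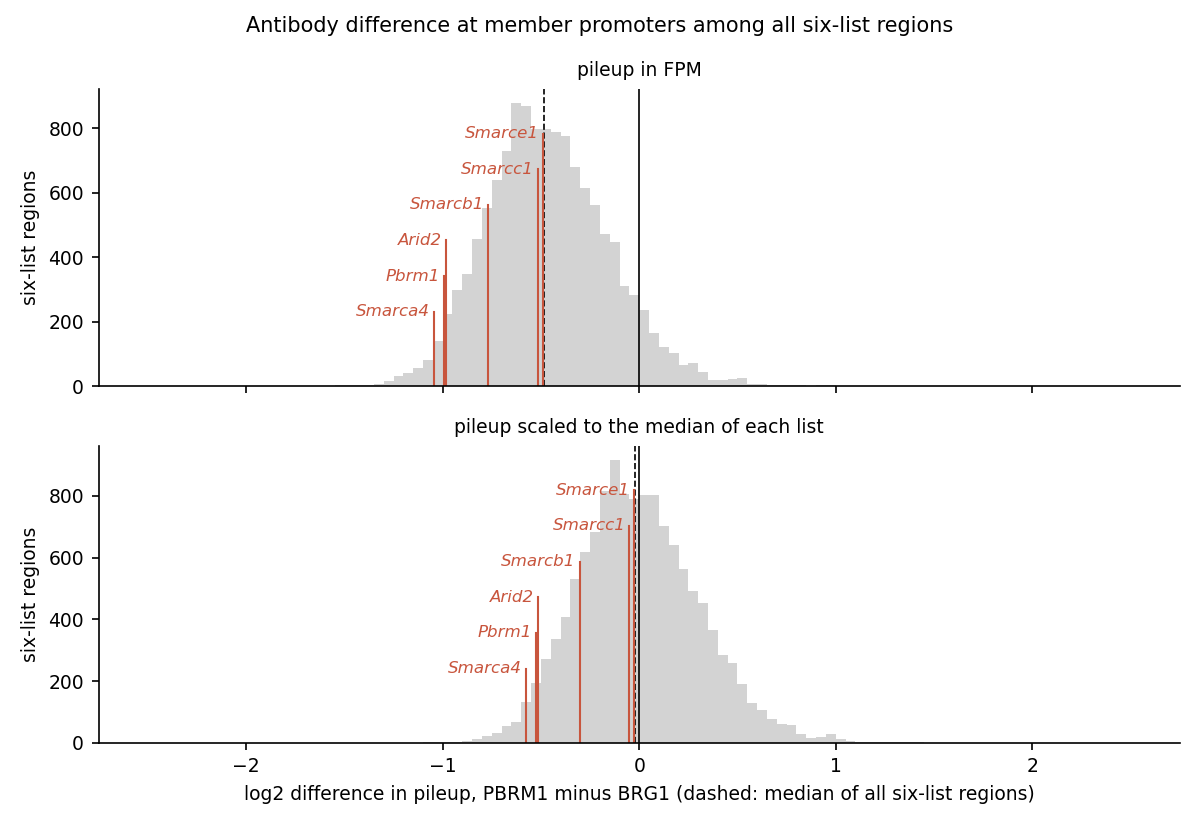
Number of regions (vertical axis) by the log2 difference in summit pileup, PBRM1 minus BRG1 (horizontal axis), over all 12828 regions with a peak in all 6 lists, in FPM above and scaled to the median of each list below; red lines mark the 6 member promoters, the dashed line the median of all regions and the solid line no difference. *Smarca4*, *Pbrm1* and *Arid2* sit in the lower tail in both panels, and *Smarce1* and *Smarcc1* (its internal start) near the median.

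Peaks of the 6 lists merged into 67 regions in the 9 windows, of which 14 were in all 6 lists and 35 in a single list. A merged region was classed by the median of its summits, so a single peak in it can be of the other class. Over the genome 15.5% of merged regions were in all 6 lists. Of the 18 regions at own promoters 7 were in all 6 lists, of the 19 at promoters of other genes 5, and of the 30 distal regions 2. The 2 of 30 (6.67%) stood near the 7.80% of distal regions over the genome, and the share for promoter regions was 32.8%. Both distal regions in all 6 lists lay in introns, 1 in *Brd7* and 1 in *Smarcb1*, and 14.2% of protein-coding genes had such a region in their window. The 5 at promoters of other genes were at *Glt8d1* with *Spcs1* and at *Nt5dc2* with *Smim4* in the *Pbrm1* window, at *Wdr27* with *1600012H06Rik* and *Gm7393* beside *Phf10*, at *Derl3* beside *Smarcb1*, and at *Dhx30* beside *Smarcc1*. Of the 8 distal regions of *Smarcc1*, 7 were in a single list and 1, at 108.3 kb, was in 5.

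The *Smarcb1* intron region (chr10:75898654-75899556, 22.5 kb into the gene) had the higher pileup of the pair of distal regions in all lists. Its pileup was 1.72, 1.32 and 1.79 FPM in PBRM1 replicates 1, 2 and 3 and 1.76, 1.82 and 2.00 in BRG1 replicates 1, 2 and 3. PBRM1 replicate 3 exceeded BRG1 replicate 1, so the groups overlapped, and the difference of -0.22 did not pass the test (SE 0.19, adjusted p = 0.330). The *Brd7* intron region (chr8:88340018-88341223, 21.9 kb into the gene) had 0.859, 0.772 and 0.792 FPM for PBRM1 and 1.07, 1.12 and 1.06 for BRG1. The value of PBRM1 replicate 2 was the peak counted above as its *Brd7* promoter peak, at an internal start, so a distal peak proper was in 5 of the 6 lists. The peaks of PBRM1 replicates 1 and 2 shared no base with any BRG1 peak. Only the 1146 bp peak of PBRM1 replicate 3 joined them to the BRG1 peaks. The FPM values and the test at the *Brd7* region therefore set different positions against each other. With that limit, the groups did not overlap, yet the difference of -0.43 did not pass either (SE 0.22, adjusted p = 0.0945).

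The 300 bases around the pooled PBRM1 summit of the *Smarcb1* intron (minus strand, as the gene is read, chr10:75898942-75899241) held 2 CpGs. This was above 12.5% of distal windows of the genome, which had a median of 4, and promoter windows had a median of 21. Capitals mark the match to TGANTCA, the site of AP-1 factors.
Smarcb1 intron: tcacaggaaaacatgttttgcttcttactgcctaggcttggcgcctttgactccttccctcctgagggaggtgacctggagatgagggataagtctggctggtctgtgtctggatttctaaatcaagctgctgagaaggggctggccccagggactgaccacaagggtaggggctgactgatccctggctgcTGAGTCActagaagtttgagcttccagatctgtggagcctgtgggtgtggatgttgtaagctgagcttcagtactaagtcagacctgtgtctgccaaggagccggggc
TGANTCA was in 36.4% of the windows of the same length at the 4484 distal regions in all 6 lists, against the 7.58% of promoter windows given above. No other motif searched was in this window.

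The *Pbrm1* gene held a pair of regions that were in all 3 lists of a single antibody, picked here with their values already known. The first, in an intron 46.0 kb into the gene (chr14:31064824-31065178), had 64, 41 and 42 fragments at the summit in BRG1 replicates 1, 2 and 3, with 14.6-, 12.7- and 12.1-fold enrichment, and no peak in any PBRM1 replicate list. In FPM these values were 4.03, 2.87 and 2.79, above every promoter value of *Pbrm1*. Of 760 regions of the genome in all 3 BRG1 lists and no PBRM1 list, 0.916% of all merged regions, it ranked 1 by mean FPM and 2 by mean fold enrichment. A peak was called there in the pooled PBRM1 list, with a pileup of 23 (0.372 FPM) against 146 (3.23 FPM) in the pooled BRG1 list. The borders of this peak were identical to the base in all 3 BRG1 lists and in both pooled lists. Such identity in all 3 BRG1 lists was found for 4 peaks of the genome and in both pooled lists for 71. The peak itself held no repeat-masked base, the 500 bases upstream were 67.4% masked and the 500 downstream 32.8%. All 7 consecutive stretches of 50 bases in it were found once on the 20 chromosomes. Whether the borders or the neighbouring repeats have a part in the signal was not tested.

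The last 300 bases of that peak (plus strand, chr14:31064879-31065178) are shown because it was the highest region in the window by mean BRG1 pileup, although the promoters of *Glt8d1* and *Nt5dc2* were higher in BRG1 replicate 3. None of the motifs searched was found in it, so no letters are in capitals.
Pbrm1 intron: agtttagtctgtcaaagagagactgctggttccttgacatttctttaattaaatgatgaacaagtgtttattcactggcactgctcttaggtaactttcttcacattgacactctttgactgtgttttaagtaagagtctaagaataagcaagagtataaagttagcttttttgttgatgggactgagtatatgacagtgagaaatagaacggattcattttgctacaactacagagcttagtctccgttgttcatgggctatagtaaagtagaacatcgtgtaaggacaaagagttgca
The second, 69.5 kb into the gene (chr14:31088342-31088967) and within an exon of *Smim4*, which is read on the other strand, had 16, 12 and 17 fragments in PBRM1 replicates 1, 2 and 3 and no peak in any BRG1 list, pooled included. It was of ordinary size for its kind, ranking 575 by mean FPM among 1011 regions in all 3 PBRM1 lists and no BRG1 list (1.22% of all merged regions).

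**Figure D4:**
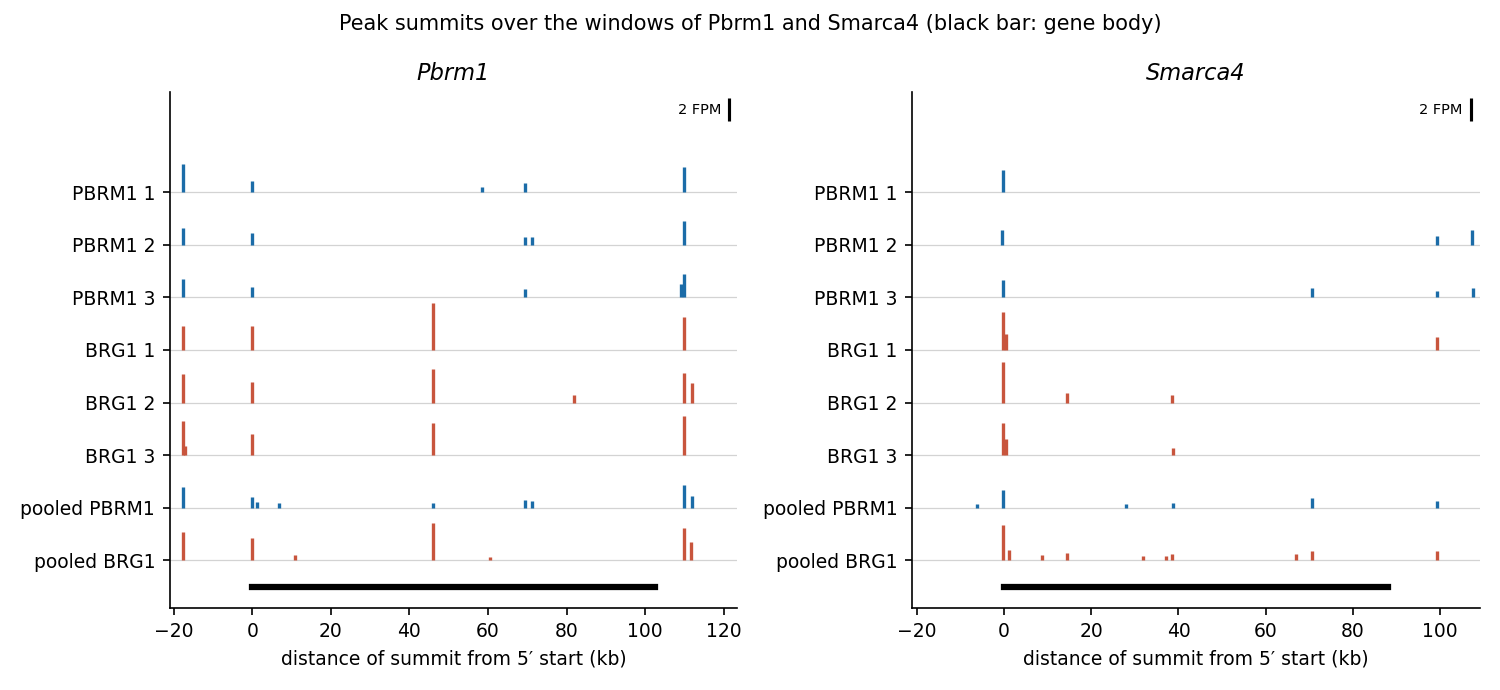
Peak summits over the windows of *Pbrm1* (left) and *Smarca4* (right) in each of the 8 lists (rows), by distance from the 5′ start in kb (horizontal axis); line height is pileup in FPM on the scale of the black upright bar, and the thick bar is the gene body. In *Pbrm1* the tall line at 46.0 kb is in the BRG1 lists and, low, in the pooled PBRM1 list; in *Smarca4* the promoter is the tallest or level with the tallest in all 8 lists.

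*Smarca4* had no such distal region. Its 4 distal regions were in 1 to 3 lists each, and the best supported, at 99.2 kb, beyond the end of the gene, was in PBRM1 replicates 2 and 3 and BRG1 replicate 1 with 13 to 17 fragments. *Arid2* had 6 distal regions, all intronic and each in a single list.

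Summed over the 9 windows (915.9 kb), the PBRM1 lists held 26, 29 and 33 peaks and the BRG1 lists 32, 32 and 25. The means were 29.3 ± 3.51 and 29.7 ± 4.04 (SD, n = 3 each), a difference of -0.333 (exact permutation test, two-sided, p = 1), and 3 libraries against 3 cannot give a p below 0.1. Distal peaks numbered 9 ± 1.73 for PBRM1 and 8.33 ± 1.15 for BRG1 (SD, n = 3 each, exact permutation p = 0.6). Per 1000000 fragments the means were 1.43 ± 0.151 and 1.97 ± 0.291 peaks (SD, n = 3 each, exact permutation p = 0.1), the BRG1 libraries being the smaller. The windows held 2.73 to 3.60 peaks per 100 kb in the replicate lists, against at most 2.61 over the windows of all protein-coding genes.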

How the data were processed

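ChIC-Seq libraries of WT primary oviductal muscle cells, 3 for PBRM1 and 3 for BRG1, were compared as 6 replicate and 2 pooled peak lists. The labels name cutadapt, Bowtie2, MACS2 and GRCm38.p5. Narrow peaks were called by the authors at a q cutoff of 0.05 and with no control library (MACS 2.2.7.1 per the file headers), so signal independent of the antibody may be included. The deposited pileup is the signal (fragment coverage) at the summit and was not scaled by the authors. Fold enrichment, as deposited, is pileup as a ratio to the background around the peak in that library, and q was deposited as −log10 q.

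Pileups were scaled to 1000000 fragments by the header's total (FPM). No peak ended beyond its GRCm38 chromosome. Peaks of the 6 lists sharing at least 1 bp formed a region. Genes came from GENCODE vM21 and sequence from GRCm38.p6 (RefSeq). Regions in all 6 lists were tested with limma 3.58.1 (R 4.3.3, trended) and window totals by exact permutation in Python 3.11.15 (numpy 2.4.6, pandas 2.3.3). In simulated data with 12828 regions, limma recovered 65% of 100 changes of 1 and 99% of 100 changes of 2 on the log2 scale, with 6 false calls. All other simulated regions had no antibody difference, whereas the median difference in the data was -0.49. These rates therefore do not carry over to the calls on FPM.

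The genes named were the 9 members, neighbours sharing a peak and exceptions in the reference lists. Members and lists were chosen with earlier results of these data known. Sequences were 30 bases of annotated exon at the *Pbrm1* promoter, the *Smarca4* promoter upstream of its 5′ start, the highest distal region in all 6 lists and the BRG1-only *Pbrm1* intron peak. The alternatives were −log10 q of at least 5, equal numbers of peaks, other promoter distances, flanks, overlap and transcripts, other scalings, a replicate block and leaving out each library.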

Additional observations from a re-analysis of the deposited data

How the results depend on the processing

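With −log10 q of at least 5, promoter peaks in all 6 lists remained at 2 members (*Arid2* and *Smarcc1*, against 27.2% of protein-coding genes), 1 distal region was in all lists (6.33% of distal regions over the genome), both of the 2 promoters tested were called (70.4% of 6505 regions), and the *Pbrm1* percentile had no value. Members with a promoter peak in all 6 lists numbered 5 with promoters within 1 kb, where *Arid2* was lost. They numbered 8 with promoters out to 5 kb, where *Brd7* and *Phf10* were added. With equal numbers of peaks they numbered 5, without *Smarce1*. The shares of protein-coding genes at these settings are not given here. The count of distal regions was 0 with promoters out to 5 kb and 4 with 50 kb flanks. Scaling to the list median left 1 member promoter and 602 regions called, and fold enrichment 1 and 1400. Ranked by fold enrichment, the *Pbrm1* and *Smarca4* percentiles were 7.49 and 72.9. Leaving out each library in turn gave 6 to 7 members with a peak in all remaining lists (7 without PBRM1 replicate 2, which added *Phf10*), 1 to 3 distal regions (1 without PBRM1 replicate 3), 4 to 5 promoters called, 5218 to 6878 regions called, and percentiles of 23.7 to 29.6 for *Pbrm1* and 87.6 to 94.1 for *Smarca4*. The difference in peaks per window total ranged from -2.67 to 1.33 and changed sign without PBRM1 replicate 1 or BRG1 replicates 1 or 2. *Smarcc1* lost its call without PBRM1 replicates 2 or 3 or BRG1 replicates 2 or 3 (adjusted p 0.0558 to 0.0983), and *Smarce1* gained one without PBRM1 replicate 2 (0.031) or BRG1 replicate 2 (0.0387). The cause was not tested.

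The libraries showed no sign of pairing by replicate number (correlations of same-numbered deviations from -0.0288 to 0.00349). Whether same-numbered libraries shared a cell preparation cannot be told from these correlations. With a replicate block 6638 regions and 5 member promoters were called. The lists hold only called peaks, so a missing peak is not a value of 0, and regions absent from any list were outside the test.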
